A study of Mus musculus with 12 samples.

Results

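The 8 genes examined here belong to the angiotensin and endothelin systems of the heart: Agt, Ace and Agtr1a of the former, and Edn1, Edn3, Ece1, Ednra and Ednrb of the latter. They were chosen by gene symbol, and each matched 1 row of the 43686 in the deposited table. Ventricular wall RNA of C57BL/6 mice gave 6 control and 6 mutant libraries, each called a heart here. The study's methods give the substrain as C57BL/6J. The labels give the mice as 2 months old, whereas the text of the study gives a younger age. The study's reporting summary says that its omics work used male mice, at ages that include one near the labelled age. The controls (WT; labelled wild type) were Sdhaf4fl/fl littermates without Cre, and the mutants (KO; labelled Sdhaf4-/-) were Sdhaf4fl/fl mice with Ckmm-Cre, so both groups carried the floxed alleles and only the mutants carried Cre, whose own presence and the loss of the gene cannot be told apart. Sdhaf4 encodes an assembly factor of succinate dehydrogenase, which is respiratory complex II. The muscle creatine kinase promoter drives the Cre in cardiac and skeletal muscle, so endothelial cells, fibroblasts and other non-muscle cells of the ventricle are not expected to lose the gene. No mouse received a treatment named in the labels.

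Angiotensinogen, the product of Agt, is cut by renin to angiotensin I, which angiotensin-converting enzyme (ACE) trims to angiotensin II. Angiotensin II acts mainly through the AT1 receptor, encoded in rodents by Agtr1a and Agtr1b, whereas neprilysin is among the enzymes that cut angiotensins to shorter peptides. Endothelins are made as precursors that endothelin-converting enzyme cleaves, and they act through the ETA (Ednra) and ETB (Ednrb) receptors. Through the AT1 and ETA receptors, both systems raise vascular tone and are known for promoting growth and fibrosis of the stressed heart. These receptors couple to the G protein Gq.

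The libraries held between 23747014 and 27159228 counted reads in WT and between 26542930 and 31393393 in KO. The targeted gene, Sdhaf4, was at 25.2 ± 5.80 CPM in WT and at 2.40 ± 0.170 in KO (CPM, read counts scaled to library size with TMM factors, as mean ± SD of 6 hearts). WT replicate 6 was the lowest WT heart for Sdhaf4, at 14.3 CPM, against 24.1 to 30.3 CPM in the other WT hearts. Ventricular cardiomyocyte markers summed to between 64274 and 71033 CPM in WT. Of the atrial markers, Sln and Myl7 reached at most 0.254 and 0.293 CPM in any library. The others on that list reached more: Myl4 4.47, Tbx5 37.3, Dkk3 38.1 and Stard10 29.7 CPM. The genotypes did not overlap for Dkk3 (2.52 to 4.21 CPM in WT, 19.0 to 38.1 in KO). Nor did they for Stard10, which was lower in KO (21.7 to 29.7 CPM in WT, 4.50 to 7.17 in KO). Whether atrial tissue was present was not tested. KO replicate 3 stood apart from the other KO hearts, since its cardiomyocyte markers summed to 69471 CPM, within the WT range, against 49274 to 55047 in the others. For this reason the changes are also given without it.

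The RefSeq promoter windows (GRCm38.p6) of the 3 members that more than doubled in the KO hearts and of the 1 that fell most are printed here, because these members had the largest fold changes. Each line gives the 250 bases before the annotated start, 5′ to 3′, except that the 3 bases of the Ace window that lie in an annotated exon were left off. Capitals mark a TATA box in either orientation.
Ace (chr11:105967698-105967944, plus strand): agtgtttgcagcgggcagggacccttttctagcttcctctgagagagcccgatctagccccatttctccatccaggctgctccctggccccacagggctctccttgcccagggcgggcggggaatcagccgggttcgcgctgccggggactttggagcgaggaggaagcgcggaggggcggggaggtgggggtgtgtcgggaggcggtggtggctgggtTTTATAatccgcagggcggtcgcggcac
Edn1 (chr13:42301226-42301475, plus strand): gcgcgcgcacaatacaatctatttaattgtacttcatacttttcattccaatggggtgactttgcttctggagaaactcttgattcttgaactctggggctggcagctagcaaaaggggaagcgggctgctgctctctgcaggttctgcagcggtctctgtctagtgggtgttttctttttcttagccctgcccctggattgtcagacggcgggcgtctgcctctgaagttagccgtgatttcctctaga
Ednrb (chr14:103843702-103843951, minus strand): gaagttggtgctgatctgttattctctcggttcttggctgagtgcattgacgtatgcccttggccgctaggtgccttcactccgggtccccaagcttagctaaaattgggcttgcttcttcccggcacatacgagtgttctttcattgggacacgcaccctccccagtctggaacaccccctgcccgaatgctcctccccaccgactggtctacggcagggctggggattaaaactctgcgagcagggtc
Agt (chr8:124569707-124569956, minus strand): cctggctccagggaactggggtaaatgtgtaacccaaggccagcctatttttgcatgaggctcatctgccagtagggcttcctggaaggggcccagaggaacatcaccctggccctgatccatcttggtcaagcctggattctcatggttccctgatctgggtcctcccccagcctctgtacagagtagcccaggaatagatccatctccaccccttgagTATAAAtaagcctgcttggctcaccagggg
A TATA box stood 30 bases before the start of Agt, and its reverse complement began 31 bases before that of Ace. Searched on both strands were the HIF core ACGTG, the AP-1 site TGACTCA, the GATA motif AGATAA and the TATA box TATAAA, which 16.6%, 4.46%, 9.99% and 12.4% of all 32851 windows of this length hold. Among the 11 windows of the members, 2 held the TATA box and 1, an internal start of Ece1, held the HIF core, while the other motifs had no match. The HIF core matched on both strands of 1 overlapping site, beginning 89 and 90 bases before that start. This site lay partly in an annotated exon, which covers 87 bases of that window. The windows were available for 7 of the 8 members, all but Agtr1a.

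The genotypes were compared over the whole table with the quasi-likelihood test of edgeR, and p-values were adjusted by Benjamini-Hochberg over the 17155 rows that passed the filter on low counts. All 8 members passed this filter. At an adjusted p under 0.05, 4 members were higher in the KO hearts (Ace, Edn1, Ednrb and Ece1), where 25.6% of all rows tested were, and 2 were lower (Agt and Agtr1a), where 25.5% of all rows were. Ednra and Edn3 did not pass, so that 6 of 8 members were called, where 51.1% of all rows were. The 6 KO libraries all lay above the 6 WT libraries for the 4 higher members, against 14.9% of all rows, and all below them for the 2 lower members, against 15.2%, together 6 of 8 against 30.1% of all rows. With the thresholds of the study's methods, which ask for an adjusted p below 0.005 and more than a doubling or halving, Ace, Edn1 and Ednrb were higher (5.36% of all rows) and Agt was lower (4.87%), together 4 of 8 against 10.2% of all rows. The median log2 fold change was 0.11 over the 8 members and 0.0022 over all rows. In bulk tissue, a change in the number of cells of a type and a change in the RNA per cell cannot be told apart.

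**Figure D1:**
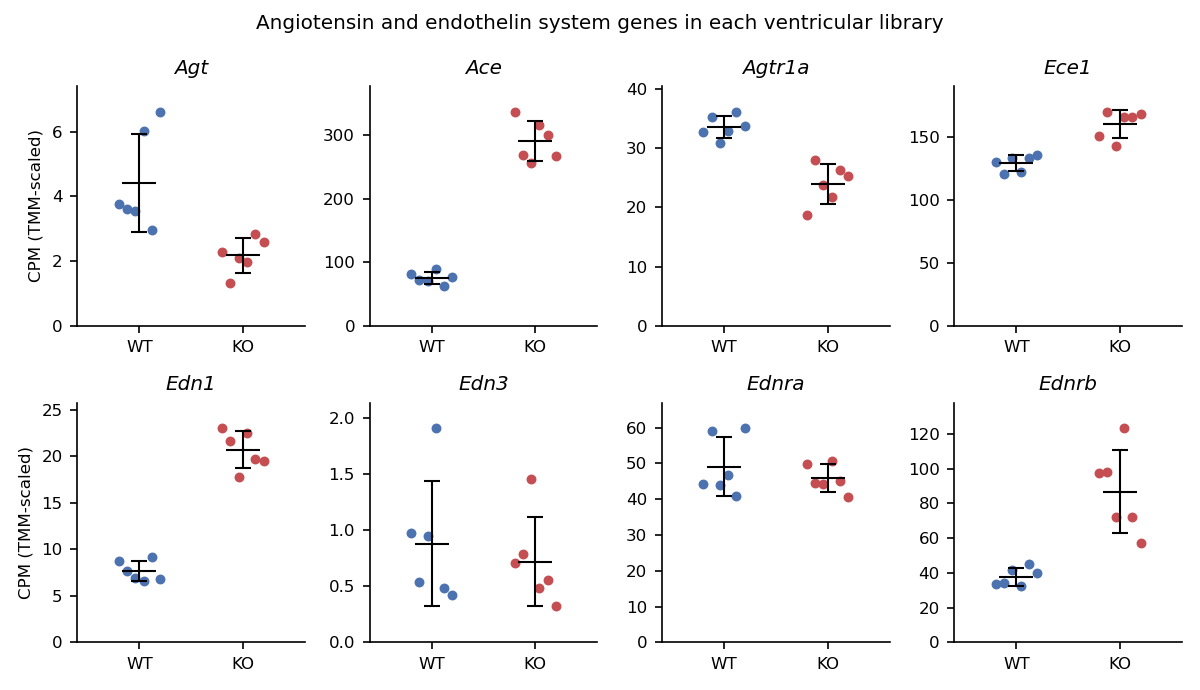
CPM of each member in each of the 12 ventricular libraries (points; vertical axes start at 0), with the mean and SD of each genotype as a bar with whiskers. The WT and KO points are fully separated for Ace, Edn1, Ece1, Ednrb, Agt and Agtr1a and overlap for Edn3 and Ednra.

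The angiotensin genes did not move in 1 direction. Agt, the gene of the angiotensin precursor (chromosome 8, 132535664 to 132548855, minus strand; positions here and below are on the C57BL/6NJ assembly), was weakly expressed, with 73 to 173 reads per WT library and 35 to 87 per KO library. Its level ranged from 2.95 to 6.61 CPM in WT (median 3.69) and from 1.31 to 2.84 CPM in KO (median 2.18). WT replicates 4 and 6 were well above the other WT hearts, at 6.00 and 6.61 CPM, and the lowest WT heart was only just above the highest KO heart. The KO mean of 2.18 ± 0.534 CPM compared with 4.41 ± 1.50 in WT (SD, n = 6), and the log2 fold change was -1.02 (standard error 0.22, edgeR adjusted p = 0.00107). This value was close to the threshold of 1 and ran from -1.11 to -0.87 when single libraries were left out.

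Ace, which encodes angiotensin-converting enzyme (chromosome 11, 112589859 to 112613898, plus strand), had the largest change of the 8 genes. It lay between 62.6 and 89.5 CPM in WT (median 74.1) and between 256 and 337 CPM in KO (median 284). The lowest KO heart, replicate 3, was thus far above the highest WT heart, replicate 4. The WT mean was 75.3 ± 9.38 CPM and the KO mean 290.4 ± 31.9 (SD, n = 6), 3.86-fold higher (log2 fold change 1.95, standard error 0.09, edgeR adjusted p = 8.3e-11). An unnamed row on the opposite strand, which covers most of the gene, took 30 to 256 reads per library, against 1548 to 10480 for Ace, and also rose, with a log2 fold change of 2.02 for MGP_C57BL6NJ_G0003184 (edgeR adjusted p = 2.58e-08). Whether the counting used strand is not given in the sources used here, so reads of this row and of Ace cannot be told apart where they overlap. RefSeq gives Ace an internal start besides the one printed above, and counts per gene do not separate the transcripts.

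Agtr1a, the gene of the AT1a receptor (chromosome 13, 29177970 to 29226900, plus strand), fell moderately. It ranged from 30.8 to 36.2 CPM in WT (median 33.3) and from 18.7 to 28.0 CPM in KO (median 24.6), with KO replicate 1 lowest. The mean dropped from 33.6 ± 1.91 to 24.0 ± 3.37 CPM, a ratio of KO to WT of 0.714 (log2 fold change -0.49, standard error 0.08, edgeR adjusted p = 0.000114). Agtr1a and its paralog Agtr1b share identical runs of up to 66 bases in GENCODE M21 transcripts, the longest of the 4 paralog pairs given here. For the others (Edn1 with Edn3, Ednra with Ednrb, Ece1 with Ece2) the longest run was 15 to 21 bases. Agtr1b was at or under 0.137 CPM in every library, so few reads were assigned to that copy.

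Of the endothelin ligands, Edn1 rose and Edn3 did not pass the test. Edn1, which encodes endothelin-1 (chromosome 13, 42119220 to 42125921, plus strand), was between 6.64 and 9.14 CPM in WT (median 7.31) and between 17.8 and 23.0 CPM in KO (median 20.7). KO replicate 3 was again the lowest KO heart and still above all WT hearts. The mean rose from 7.67 ± 1.06 to 20.7 ± 2.01 CPM, 2.70-fold (log2 fold change 1.43, standard error 0.10, edgeR adjusted p = 3.99e-09). Edn3, the gene of endothelin-3 (chromosome 2, 186337996 to 186361353, plus strand), had 11 to 48 reads per WT library and 9 to 44 per KO library. Its level ranged from 0.420 to 1.91 CPM in WT (median 0.743) and from 0.324 to 1.46 in KO (median 0.630), and the groups overlapped widely. The log2 fold change was -0.28, with a 95% interval from -1.15 to 0.59 (edgeR adjusted p = 0.596), an interval that covers both directions. WT replicate 4 decided its sign, since the log2 fold change was 0.094 without that library.

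Ece1, the gene of endothelin-converting enzyme 1 (chromosome 4, 145538939 to 145654432, plus strand), rose least of the 4 higher members. It lay between 121 and 135 CPM in WT (median 132) and between 142 and 169.8 in KO (median 166). The ranges came close, and KO replicate 3 was the lowest of the KO hearts. The mean rose from 129 ± 6.36 to 160.4 ± 11.1 CPM, 1.24-fold (log2 fold change 0.31, standard error 0.05, edgeR adjusted p = 0.000111). An unnamed row inside its span on the opposite strand had at most 5 reads in a library.

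The endothelin receptors diverged. Ednra, the gene of the ETA receptor (chromosome 8, 81256794 to 81330881, minus strand), ranged from 40.9 to 59.8 CPM in WT (median 45.4) and from 40.7 to 50.8 in KO (median 44.8). The groups overlapped over most of their range, and WT replicates 2 and 6 were the highest libraries. The log2 fold change was -0.10 with a 95% interval from -0.30 to 0.10 (standard error 0.09, edgeR adjusted p = 0.404). Its span lies within an unnamed row on the opposite strand that took 34 to 129 reads per library, against 1012 to 1637 for Ednra. That row, MGP_C57BL6NJ_G0016112, had a log2 fold change of -0.67 (edgeR adjusted p = 0.0128).

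Ednrb, the gene of the ETB receptor (chromosome 14, 104372554 to 104403009, minus strand), rose in every KO heart but to unequal levels. It lay between 32.3 and 45.0 CPM in WT (median 37.2) and between 57.2 and 123 CPM in KO (median 84.9). KO replicate 4 was highest and KO replicate 6 lowest, with replicates 3 and 5 at 72.2 and 72.1 CPM. The WT mean was 37.8 ± 5.20 CPM and the KO mean 86.8 ± 24.0 (SD, n = 6), 2.30-fold higher (log2 fold change 1.20, standard error 0.17, edgeR adjusted p = 9.07e-05). The SD of the KO hearts for Ednrb exceeded that of the WT hearts, 24.0 against 5.20 CPM.

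The balance of the receptors was therefore examined within each library, as the log2 ratio of Ednrb to Ednra reads, a measure that does not depend on the scaling between libraries. This ratio ranged from -0.78 to 0.14 in WT (mean -0.37 ± 0.34, SD, n = 6) and from 0.49 to 1.28 in KO (mean 0.88 ± 0.30), so that all KO hearts lay above all WT hearts. The difference was 1.25 (p = 0.00216 by exact two-sided permutation, which is the smallest that 6 hearts against 6 allow, and 0.00649 after Benjamini-Hochberg adjustment over the 3 ratios tested). Per gene length, as the ratio of the authors' FPKM values, Ednrb stood at 0.50 to 0.946 of Ednra in WT and at 1.21 to 2.09 of it in KO. The log2 ratio of Edn3 to Edn1 reads was lower in KO by exact permutation (-4.96 ± 0.77 against -3.28 ± 0.89 in WT, n = 6 in each group, p = 0.00866, adjusted 0.0130), although KO replicate 3, at -3.60, lay among the WT hearts. Edn1 by itself was higher in KO (log2 fold change 1.43) and Edn3 did not pass its own test, so this ratio shows no change of Edn3.

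**Figure D2:**
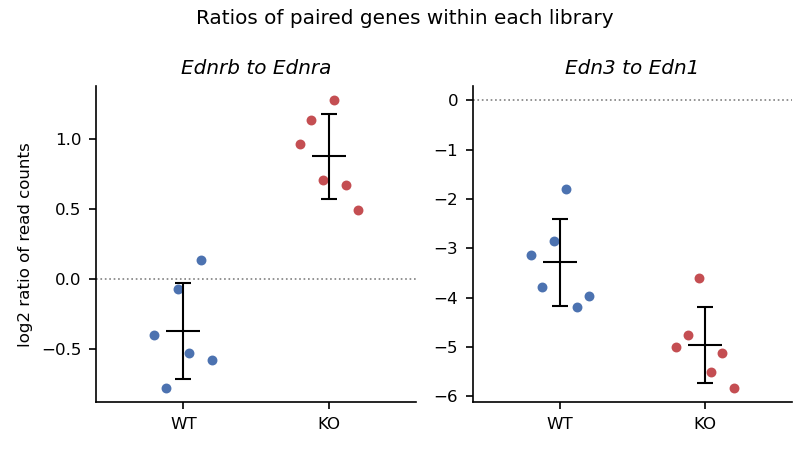
Log2 ratio of read counts within each library (points) for Ednrb to Ednra and Edn3 to Edn1, with the mean and SD of each genotype; the dotted line marks equal counts. The Ednrb to Ednra ratio lies at or below 0.14 in WT and at or above 0.49 in KO, whereas the Edn3 to Edn1 ratios of the genotypes overlap.

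Without KO replicate 3, 4 members were again higher and 2 lower. The log2 fold changes were then 1.98 for Ace, 1.47 for Edn1, 1.24 for Ednrb and 0.34 for Ece1, and -1.01 for Agt and -0.49 for Agtr1a. Those of Ednra and Edn3 were -0.09 and -0.62 (edgeR adjusted p = 0.468 and 0.212).

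Levels were compared between genes only as FPKM, which divides by gene length. In WT the order of the mean FPKM was Ece1 (85.0 ± 4.41), Ace (25.8 ± 3.27), Agtr1a (24.9 ± 1.56), Ednra (14.5 ± 2.73), Ednrb (9.59 ± 1.27), Edn1 (3.26 ± 0.431), Agt (2.34 ± 0.823) and Edn3 (0.499 ± 0.312), each as mean ± SD of 6 libraries. Neighbours in this order overlapped in range for Ace and Agtr1a, where Ace was the higher in 4 of 6 libraries, and for Edn1 and Agt, also 4 of 6. In KO the order became Ece1 (106 ± 8.72), Ace (99.7 ± 13.1), Ednrb (22.2 ± 6.60), Agtr1a (17.8 ± 2.43), Ednra (13.6 ± 1.43), Edn1 (8.84 ± 1.05), Agt (1.15 ± 0.281) and Edn3 (0.407 ± 0.215). Ace thus reached the range of Ece1 and was below it in 5 of 6 KO libraries. The range of Agtr1a overlapped those of Ednrb and Ednra, with Ednrb above Agtr1a in 4 of 6 KO libraries and Agtr1a above Ednra in 5 of 6. Within every KO library Ednrb was above Ednra, at 1.21 to 2.09 of its FPKM. Edn1 remained below Ednra in 6 of 6 KO libraries, and Agt above Edn3 in 6 of 6, although the ranges of Agt and Edn3 overlapped.

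**Figure D3:**
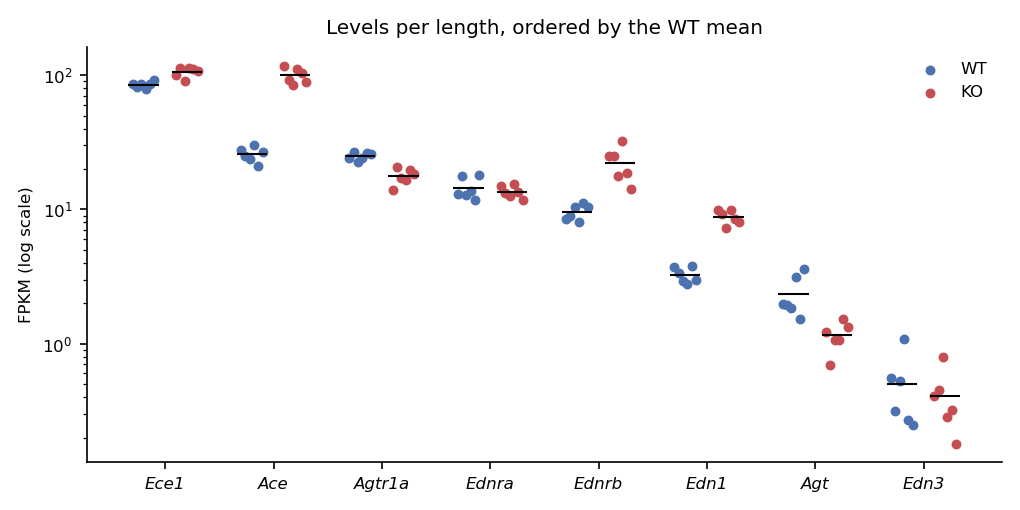
FPKM of each member in each library on a log axis, ordered by the WT mean, with lines at the genotype means. Ece1 is the highest member in both genotypes on average and Edn3 the lowest, and Ace, at 25.8 in WT, moves up to 99.7 in KO.

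Of 27 further genes of the renin-angiotensin system, 17 were tested. Of these, 8 had a higher and 4 a lower level in the mutants (median log2 fold change 0.12), where 25.6% and 25.5% of all rows tested did. Mme, the gene of neprilysin, which degrades endothelins, natriuretic peptides and angiotensin I, fell. It was between 9.78 and 17.6 CPM in WT (median 13.9) and between 1.70 and 4.05 in KO (median 2.50), with no overlap. Its log2 fold change was -2.45 (standard error 0.21, edgeR adjusted p = 1.29e-07). Nr3c2, which encodes the mineralocorticoid receptor for aldosterone, fell from 26.2 ± 2.67 to 12.5 ± 2.23 CPM (log2 fold change -1.07, adjusted p = 2.93e-07), and Rnpep, an aminopeptidase gene, fell by 0.50 on the log2 scale (adjusted p = 5.14e-05). Small rises were seen for Ctsa (cathepsin A; log2 fold change 0.30, adjusted p = 6.38e-05) and Nln (neurolysin; 0.35, adjusted p = 0.000412).

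The first step of the cascade could not be followed in this tissue. Ren1 was listed at 0 in all 12 libraries, as were Mrgprd, Mcpt4, Ctsg, Cyp11b1 and Cyp11b2, and Agtr2, the gene of the AT2 receptor, was at or under 0.0405 CPM. The table also lists the macrophage gene Itgam at 0, so that a 0 in it need not mean that the gene was silent. The chymase gene Cma1 and the mast cell carboxypeptidase gene Cpa3, whose products can also process angiotensins, passed with log2 fold changes of 1.58 and 1.89, (edgeR adjusted p = 0.0193 and 0.0240), although the genotypes overlapped for both. Both are mast cell genes. The 7 mast cell markers, these among them, summed to 7.63 to 14.8 CPM in WT and 6.82 to 18.2 in KO, with Mcpt4 at 0. Of the 4 tested, 2 were higher and 1 lower, where 25.6% and 25.5% of all rows tested were. The lower one, Kit, had the highest mean of the 7 (7.92 CPM in WT, 5.58 in KO) and so weighs most in the sum. Tpsb2 had a log2 fold change of 1.23 that did not pass (edgeR adjusted p = 0.0851). The part of mast cells in the result was not tested.

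Of 6 further endothelin genes, only Ece2 passed the filter, with a log2 fold change of -0.19 that did not pass the test (edgeR adjusted p = 0.345), and Edn2 was at or under 0.0321 CPM in every library. Of 8 kinin genes, 7 were in the table. Of all rows tested, 25.6% were higher, and of these genes 2 were tested. Both were higher. Bdkrb2, the gene of the bradykinin B2 receptor, had a log2 fold change of 1.65 (edgeR adjusted p = 0.00143). Its mean was 0.363 ± 0.191 CPM in WT and 1.15 ± 0.458 CPM in KO. It rests on few reads, 4 to 17 per WT library and 18 to 52 per KO library, and the genotypes overlapped. Cpm, a carboxypeptidase gene, rose 2.38-fold (log2 fold change 1.25, edgeR adjusted p = 4.86e-08). Kng1, Klkb1 and Cpn1 were listed at 0.

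**Figure D4:**
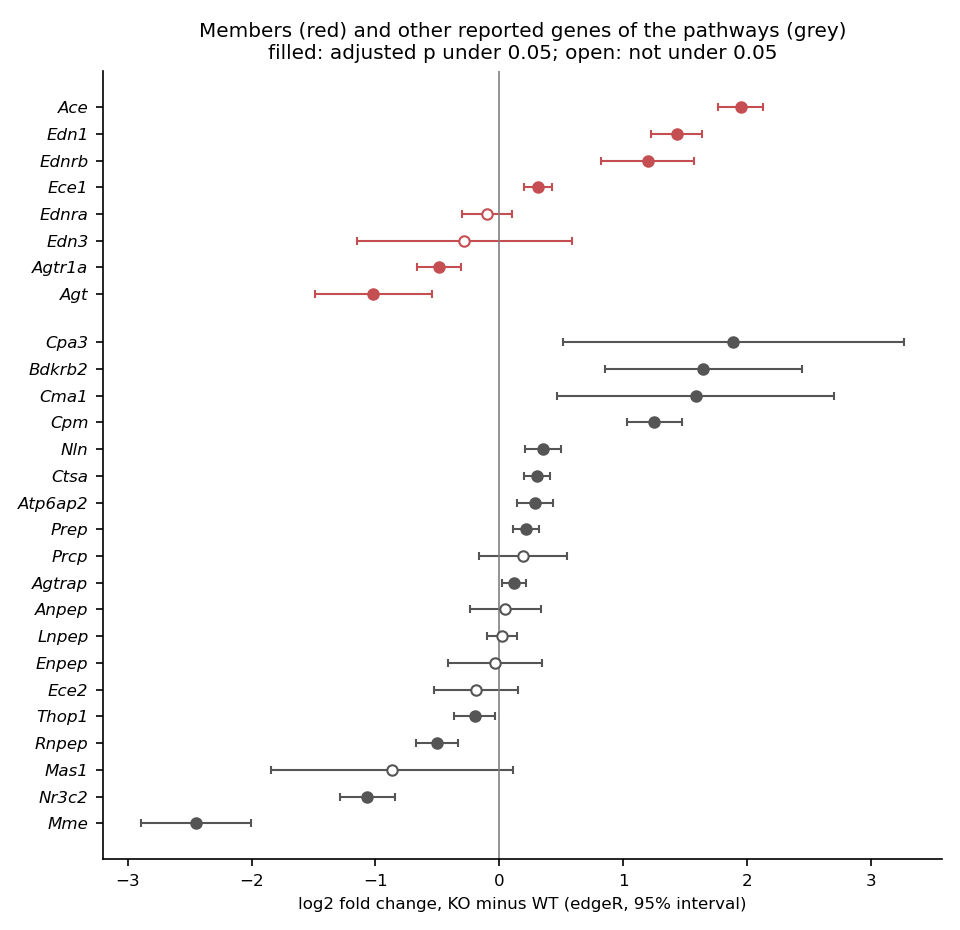
Log2 fold change of KO against WT from edgeR, with 95% intervals, for the 8 members (red) and the other reported genes of the renin-angiotensin, endothelin and kinin lists that were tested (grey); filled points have an adjusted p under 0.05. Ace (1.95) lies at the upper end of the members, and Agt (-1.02) and Mme (-2.45) at the lower end of their blocks.

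Downstream of the receptors, 28 of 29 Gq signaling genes were in the table and tested. Of these, 13 were higher and 3 lower (median log2 fold change 0.17), where 25.6% and 25.5% of all rows tested were. Prkca, the gene of protein kinase C alpha, rose 1.77-fold (from 25.5 ± 2.59 to 45.2 ± 3.06 CPM, log2 fold change 0.82, edgeR adjusted p = 5.04e-08). Rock2, a protein kinase gene, and Gna13, a G protein gene, had log2 fold changes of 0.34 and 0.39 (adjusted p = 2.21e-05 and 4.59e-05). Rgs2, whose product shortens Gq signaling, fell from 96.7 ± 26.7 to 32.6 ± 5.56 CPM (log2 fold change -1.57, adjusted p = 2.35e-05). The G protein genes Gna12 and Gna11 fell by 0.22 and 0.13 on the log2 scale (adjusted p = 0.00202 and 0.0222), and the call of Gna11 was lost without KO replicate 1 (adjusted p = 0.0584) and without the filter on low counts (adjusted p = 0.0557).

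Of 22 genes known to respond to angiotensin II or endothelin-1, 21 were tested. With 25.6% of all rows tested higher and 25.5% lower, 16 of these genes were higher and 3 lower, with a median log2 fold change of 1.43. These genes also answer to other stimuli. The list was chosen with earlier results of these data known, and the study had reported cardiomyopathy marker genes raised in these mutants. The count is therefore a description, and whether either peptide had a part in it was not tested. Nox4, which encodes an NADPH oxidase, rose 12-fold (from 2.17 ± 0.611 to 26.1 ± 3.53 CPM, edgeR adjusted p = 3.39e-11), the stress gene Ankrd1 rose 8.43-fold (adjusted p = 5e-10) and the matrix gene Postn 11.6-fold (adjusted p = 5.57e-08). Cybb, the gene of another NADPH oxidase, fell by 0.59 on the log2 scale (adjusted p = 0.000467), and the immediate early gene Fos fell by 2.02 (adjusted p = 0.00471) with WT values spread from 3.25 to 24.6 CPM. Cyr61 had a log2 fold change of -0.47 (adjusted p = 0.0325), which did not pass without WT replicate 1 or without KO replicates 2, 3, 4 or 5, each left out alone (adjusted p from 0.0537 to 0.0717), nor without the filter on low counts (adjusted p = 0.0714).

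Markers of the cell types that express the members also moved. The counts of markers called below stand beside 25.6% of all rows tested that were higher and 25.5% that were lower. Endothelial cells are a main source of Edn1, Ace and Ece1. The 12 endothelial markers summed to 2030 to 2273 CPM in WT and 2368 to 2929 in KO. Of them, 7 were higher (most so Vwf, 2.11-fold, and Ptprb, 1.82-fold) and 2 lower (Tek, 0.811-fold, and Cldn5, 0.584-fold). Cdh5, Tie1 and Erg were not called (1.05-, 1.07- and 0.988-fold). The summed level of the 12 markers lay above the WT range in every KO heart. The mean of Ptprb rose from 326 to 591 CPM and that of Vwf from 97.5 to 206, a large part of that difference. Among the endocardial markers, Plvap, also an endothelial gene, rose 3.25-fold, and Nfatc1 and Cgnl1 fell (0.837- and 0.687-fold). The 5 endocardial markers summed to 119 to 184 CPM in WT and 152 to 211 in KO (3 higher, 2 lower), and the 10 fibroblast markers to 3005 to 3590 and 3823 to 5524 (8 higher, 2 lower). The 10 mural cell markers, which stand for pericytes and smooth muscle, gave 1869 to 2053 CPM in WT and 1709 to 2261 in KO (3 higher, 3 lower), and the 11 ventricular cardiomyocyte markers summed to between 49274 and 69471 CPM in KO (1 higher, 6 lower). The Schwann cell markers, of which 6 of 7 tested were lower, summed to 17.8 to 34.6 CPM in WT and 11.6 to 20.2 in KO. Such cells also express Ednrb. For macrophages (2 higher and 2 lower of 9 tested, sums of 268 to 372 and 281 to 395 CPM), lymphocytes (1 higher of 6, 3.36 to 6.79 and 3.08 to 8.35), the epicardium (none called of 2, 5.13 to 13.0 and 6.78 to 11.2) and atrial markers (2 higher and 1 lower of 4, 54.5 to 71.6 and 54.8 to 71.8) the ranges of the genotypes overlapped. The atrial sum hides opposite changes, since Dkk3 (9.23-fold) and Myl4 (1.65-fold) were higher and Stard10 (0.241-fold) was lower. The part of all these cell types in the members' changes was not tested.

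To place the members among all genes, the rows whose log2 CPM moved most like each called member over the 12 libraries were identified among 10250 annotated rows with a mean of at least 5 CPM, by the root-mean-square distance of the centred profiles. Nearest to Ace were Bgn, a matrix proteoglycan gene (distance 0.097, log2 fold change 2.03), and Igfbp7 (0.127 and 1.98, in the same order). Nearest to Edn1 were Gpm6b (0.086 and 1.44) and Olfml3 (0.145 and 1.33), and nearest to Ednrb were the crosslinking enzyme gene Loxl1 (0.166 and 1.34) and Mmp23 (0.177 and 1.47). Ece1 was closest to Pacsin2 (0.044 and 0.26) and Sh3gl1 (0.054 and 0.31), and Zfp579 (0.089 and -0.40) was near to Agtr1a. The profile of Agt had no close match, with Slc25a35 and Ttc27 at distances of 0.306 and 0.308. These distances describe 12 libraries, and the difference between the genotypes is part of each profile.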

How the data were processed

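Ventricular wall RNA (TruSeq libraries, mRNA purified on poly-T beads) of 6 WT and 6 KO libraries was grouped by the sample titles. The submitters' processing notes name HISAT2 2.0.5 and mm10, yet the row identifiers are those of C57BL/6NJ, and the starts of the members differ from GRCm38 by 182256 to 11577377 bases, so coordinates are on C57BL/6NJ. The authors counted reads per gene with HTSeq and deposited raw read counts and, per library, FPKM values. FPKM group means, the signal of size-factor-scaled mean counts, and DESeq columns of the authors (p-values, log2 fold changes) were deposited too and were not used.

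The counts were tested with edgeR 4.0.16 under R 4.3.3 (filterByExpr, TMM, robust quasi-likelihood test, Benjamini-Hochberg over 17155 rows), and CPM are TMM-scaled. Standard errors come from the fold change and F statistic. Ratios within libraries (prior count 0.5) were compared by exact permutation. Alternatives used limma 3.58.1, DESeq2 1.42.0, other scalings and filters, a replicate block, and each library left out. The test was checked on simulated data. The members and lists were chosen with earlier results of these data known. Genes named are the members, Sdhaf4, the 3 smallest p per direction of each pathway list and the 2 nearest profiles per called member; Cma1, Cpa3, Ece2, single marker genes and genes at or near 0 were named after their values were seen. Some items, among them 1 of the 3 ratios tested, are not reported here. List symbols Kng2, Rgs3 and Actn2 matched no row. Replicates are separate libraries, and the closest pair within a genotype had a chi-square of 7.41 per degree of freedom, so no library was a duplicate. The labels do not say that each is a separate mouse, so p-values measure the spread between these libraries. Promoter sequences are RefSeq's.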

Additional observations from a re-analysis of the deposited data

Results flagged for a closer look

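In 4 of 64 groups of 6 libraries examined, 1 library lay far from the other 5, with a gap to its nearest neighbour above Dixon's 95% critical value as a share of the range, where chance flags about 1 in 20 groups, or 3.2. Edn3 was at 1.91 CPM in WT replicate 4, against 0.420 to 0.973 CPM in the other WT hearts. This value rests on 48 reads, and the 95% Wilson interval of its share, 1.42 to 2.50 CPM without TMM factors, covers counting error only. Sdhaf4 was at 2.73 CPM in KO replicate 1 (others 2.25 to 2.41 CPM). Nln was at 25.5 CPM in KO replicate 3, on the side of the WT hearts (other KO hearts 29.5 to 31.4 CPM). Gna12 was at 143 CPM in WT replicate 6 (others 155 to 162 CPM).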

How the results depend on the processing

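For the members, the 4 higher and 2 lower calls held in each of the 12 fits that left out 1 library and in the 11 other alternatives (other scalings, filters and tests, limma on log2 FPKM with a pseudocount of 0.1 or 1, and the replicate block). The log2 fold change of Ace stayed between 1.89 and 2.00, that of Edn1 between 1.21 and 1.48, of Ednrb between 1.07 and 1.29, of Ece1 between 0.29 and 0.34, of Agtr1a between -0.53 and -0.42 and of Agt between -1.11 and -0.61, the last on log2(FPKM + 1), where a pseudocount shrinks a low gene. On the same scale the log2 fold change of Bdkrb2 was 0.46, and Bdkrb2 was not tested with a filter of 1 CPM in 6 libraries. Edn3 changed sign without WT replicate 4 (log2 fold change 0.094, adjusted p = 0.860, the range over libraries left out being -0.62 to 0.094) and was not tested with a filter of 1 CPM in 6 libraries. Over all rows, the calls higher numbered 4087 to 4861 and lower 4050 to 4797. WT and KO carry the same replicate numbers, but same-numbered libraries correlated between -0.23 and 0.08 in their deviations from the group means and 3 of 6 correlated best with their own number, so the numbers were not taken as pairs. With the replicate block, 4123 rows were higher and 4110 lower, the log2 fold change of Ednrb was 1.16 (adjusted p = 0.00342), and among the genes named the calls of Gna11 and Cyr61 were lost (adjusted p = 0.0558 and 0.0873), as they were without the filter on low counts (0.0557 and 0.0714). Edn3 and Agt rest on few reads, and the WT libraries of Edn3 also spread beyond the counting interval of WT replicate 4.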
